A study of Danio rerio with 3 samples.

Results

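Dividing retinal progenitor cells were 339 of the 29463 cell barcodes with at least 200 genes in a pair of single-cell RNA-seq libraries of adult zebrafish retina, 305 in the P23H library and 34 in the WT library. A barcode tags the transcripts of a droplet, in most cases a cell, and each captured transcript carries a unique molecular identifier (UMI), so that UMIs count transcripts. Members held 3 or more UMIs of the proliferation genes *top2a*, *ccna2*, *aurkb*, *ube2c* and *mki67* together and 1 or more of *stmn1a*, which encodes the microtubule regulator stathmin. They held under 3 UMIs of the leukocyte genes *cd74a*, *cd74b* and *trac* together. Levels of these 9 genes therefore chose the members and are given as a description. The whole series analysed here held 37507 barcodes in 3 libraries.

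The P23H fish (line uth4Tg) carry a transgene, rho:MmuRho_P23H-FLAG, in which the zebrafish rhodopsin promoter drives a FLAG-tagged mouse rhodopsin with the P23H substitution in rods, and serve as a model of retinitis pigmentosa. The WT fish were wild type of the AB strain. Each library pooled the whole retinas of 3 fish of 4 to 8 months of age, as the sample labels give it, and was made with 10X V3 chemistry. A P23H library made with V2 chemistry (92 of 4671 barcodes met the same rule) was used for comparison only, and a WT library with V2 chemistry was not analysed here. With 1 library per condition there are no replicates, so that genotype, strain background and library cannot be told apart, and no p-value is given. All intervals are 95% intervals and cover counting error only.

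The teleost retina keeps making neurons in the adult. Multipotent progenitors of the ciliary marginal zone, and progenitors that arise from Müller glia after injury, carry retinal progenitor factors such as *sox2* and *pax6* and Notch effectors of the *her* family. Müller glia in the uninjured fish retina also give rise, at a low rate, to rod precursors, which migrate to the outer nuclear layer, divide there and differentiate as rods under factors such as *crx*, *neurod1* and *nr2e3*. Dividing cells of either kind pass through a phase of DNA synthesis (S), a gap phase (G2) and mitosis (M).

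The V3 libraries were of like depth, with 31429971 UMIs in 15585 barcodes in P23H and 32916412 UMIs in 13966 barcodes in WT. Members were deep, with a median of 7088 UMIs (792 to 23111) in P23H and 6857.5 (1178 to 54237) in WT, against 1243 and 1202 over all barcodes with 200 genes. Mitochondrial UMIs were a median of 0.333% and 0.376% of the UMIs of members, and 0.832% and 1.25% over all such barcodes. A single WT barcode with 54237 UMIs and 5831 genes held 17.8% of all WT member UMIs, the next holding 17915, and results that rest on it are given with and without it. The V3 libraries shared 64 barcode sequences, none of them in a member. No doublet caller was used. Markers of other cell types at 10000 CPM (counts of UMIs scaled to a fixed total of 1000000) or more were carried by 25 of 305 P23H members (14 with bipolar, 7 with cone and 4 with rod genes among them) and by 9 of 34 WT members (6 with rod and 3 with cone genes among them). No member reached that level for microglia, T lymphocyte, erythroid, amacrine, horizontal, ganglion, oligodendrocyte or vascular markers. For microglia and T lymphocyte markers this was partly fixed by the limit of the rule on leukocyte genes.

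The label held against its markers. *pcna*, the sliding clamp of DNA replication and the only label marker outside the rule, was at 948 CPM in P23H members and 1049 CPM in WT members, against 102 and 76.5 CPM in all other barcodes, and was detected in 71.1% and 70.6% of members. Of the genes of the rule, *top2a* was at 403 and 393 CPM, *mki67* at 525 and 521, *ube2c* at 503 and 541, *ccna2* at 323 and 426, and *aurkb* at 306 and 243 CPM. *stmn1a* was at 2612 and 1659 CPM. The 5 proliferation genes gave a median of 14 UMIs per member in either library, with a range of 3 to 68 in P23H and 3 to 74 in WT. Just inside the threshold, at 3 UMIs, were 13 P23H members and 1 WT member, and just outside, at 2 UMIs, were 19 and 3 barcodes. The condition on *stmn1a* left out 4 and 2 barcodes that met the rest of the rule, and that on leukocyte genes 12 and 5.

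Dividing progenitors took a larger share of the P23H library. They were 1.96% of P23H barcodes (exact Clopper-Pearson interval 1.75 to 2.19%) and 0.244% of WT barcodes (0.169 to 0.341%), a ratio of 8.03 (5.62 to 11.8). In the V2 library of P23H the share was 1.97% (1.59 to 2.41%). That library was shallower, with a median of 457 UMIs per barcode that entered the share, against 1243 in P23H V3. Just inside the threshold on the proliferation genes were 35 of its 92 members, and just outside were 57 barcodes. For P23H V3 these were 13 of 305 members and 19 barcodes. The V2 share thus depends more on the threshold and depth, and its closeness to the V3 share does not show equal abundance. With every barcode thinned to 1000 UMIs, which left out 5955 P23H and 5437 WT shallower barcodes, 87 of 9593 and 17 of 8478 barcodes met the rule, and the ratio was 4.52 (2.67 to 8.12). The ratio was 10.0 (6.65 to 15.8) without members that carried markers of another cell type at 10000 CPM or more. This left out 25 of 305 P23H members and 9 of 34 WT members, 4 and 6 of them with rod genes. These are shares and not numbers per retina. Rod genes reached 10000 CPM in 11.4% of the other barcodes in P23H and in 72.6% in WT. A WT member could thus be left out for rod RNA found in most barcodes of its library. The part of that difference in the ratios of 8.03 and 10.0 was not tested. Barcodes with *stmn1a* and none of the 5 proliferation genes were 453 in P23H and 212 in WT, or 2.91% and 1.52%, a ratio of 1.91 (1.62 to 2.26).

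Mitotic and replication genes marked the members of both libraries. Of 1730 genes at 50 CPM or more in members of both libraries, 222 (12.8%) were at least 4 times as high as in the other barcodes of each library. Since the cells were chosen by cell division genes, this is a description. The 20 named genes with the highest ratios, taking the lower of the libraries, were *nusap1*, *tpx2*, *cdca8*, *kif11*, *mad2l1*, *aspm*, *dlgap5*, *cenpf*, *incenp*, *g2e3*, *cdc20*, *rrm2*, *kifc1*, *kpna2*, *ccnb1*, *spc24*, *suv39h1b*, *pbk*, *spc25* and *cks1b*. Most encode parts of the spindle, the kinetochore or its checkpoint. *nusap1*, a spindle-associated protein, was at 472 and 813 CPM in P23H and WT members, 130 and 306 times its level elsewhere. *cenpf*, a kinetochore protein, was at 322 and 420 CPM, or 79.3 and 230 times as high. *rrm2*, the small subunit of ribonucleotide reductase, which makes deoxynucleotides for S phase, was at 1279 and 1030 CPM, or 63.2 and 123 times as high. The ratio was larger in WT for each of these. For *rrm2* the level in members was higher in P23H, and the ratio was smaller because the other barcodes held it at 19.2 CPM in P23H and 7.40 CPM in WT. The other barcodes include those just outside the rule, which were more in P23H. At the other end, 598 of 2224 genes (26.9%) were at 0.25 or less of the level elsewhere in both libraries. Among them, *sst3*, a somatostatin gene, was at 0.820 and 3.28 CPM in members against 465 and 361 CPM elsewhere. *apoc1*, an apolipoprotein gene that the study used as a microglia marker, was at 2.05 and 3.28 against 447 and 432 CPM. The rule left out barcodes with leukocyte genes, which partly fixes the low level of *apoc1* in members.

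Members were spread over S and G2/M in both libraries. Each member was called S-leaning where its UMIs of a list of DNA licensing and replication genes outnumbered those of a list of mitosis and chromosome segregation genes, both without the genes of the rule. The lists hold 52 and 69 genes and members were chosen by cell division genes, so that the split is partly fixed and is a description. With 10 UMIs of the proliferation genes required, 38.0% of P23H and 23.8% of WT members leaned to S. In P23H 150 members leaned to S and 153 to G2/M, with 2 ties (49.5% S-leaning, 43.7 to 55.3%). In WT 14 leaned to S and 20 to G2/M (41.2%, 24.6 to 59.3%), and the intervals overlapped. The replication list had a median of 35 UMIs per member (0 to 188) in P23H and 34.5 (2 to 412) in WT, and the mitosis list 36 (1 to 209) and 45 (1 to 216). The plot of the lists shows members from nearly pure replication to nearly pure mitosis profiles rather than separate clouds. In the shallow V2 library 17 members leaned to S and 73 to G2/M (18.9% S-leaning). The parts of depth, chemistry and the choice of members on few UMIs in this were not tested.

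**Figure D1:**
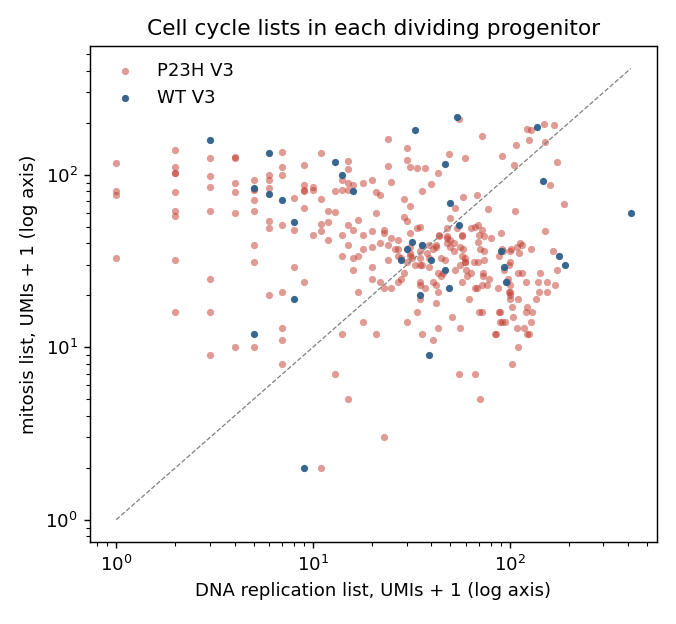
UMIs plus 1 of the replication list (x, log axis) and of the mitosis list (y, log axis) in each of 305 P23H and 34 WT members, with the line of equal counts dashed. Both libraries fill both sides of the line, with 150 P23H and 14 WT members below it and 153 and 20 above it.

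The members of the 2 libraries differed in lineage genes. Each member was placed by 2 gene sets, a rod lineage set (*crx*, *nr2e3*, *neurod1*, *otx5*, *prdm1a*, *cxxc5a*) and a multipotent set (among them *sox2*, *pax6a*, *pax6b*, *notch1a*, *notch1b*, *foxn4* and the *her4* and *her15* genes), and was taken to have a set with 2 or more UMIs of it. In P23H 213 members (69.8%, 64.3 to 74.9%) had the rod lineage set only, 12 (3.93%, 2.05 to 6.77%) the multipotent set only, 77 (25.2%) both and 3 neither. In WT 8 members (23.5%, 10.7 to 41.2%) had the rod lineage set only, 15 (44.1%, 27.2 to 62.1%) the multipotent set only, 9 (26.5%) both and 2 neither. The intervals of the 2 libraries were apart for the rod lineage class and for the multipotent class, and overlapped for the class with both. Both sets hold genes that the study had named from these samples. These are *her15.1*, *notch1b* and *foxn4*, reported as enriched in WT progenitors, and *neurod1* and *cxxc5a* of newly formed rods, reported as more abundant in P23H. The split into classes is thus a description and no independent evidence.

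Set against all barcodes, the excess in P23H lay in members with the rod lineage set only and in members with both sets. Members with the rod lineage set only were 1.37% of P23H and 0.0575% of WT barcodes, a ratio of 23.8 (11.9 to 55.9). Members with both sets, which hold the multipotent set as well, gave a ratio of 7.66 (3.83 to 17.4). The ratio of the multipotent only class, given next, thus does not stand for all members with that set. Members with the multipotent set only were 0.0772% and 0.108% of barcodes, and their ratio of 0.716 (0.306 to 1.64) had an interval that included equal shares as well as differences of over 1.5 times in either direction. The intervals of the ratios of the rod lineage class and the multipotent class did not overlap.

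**Figure D2:**
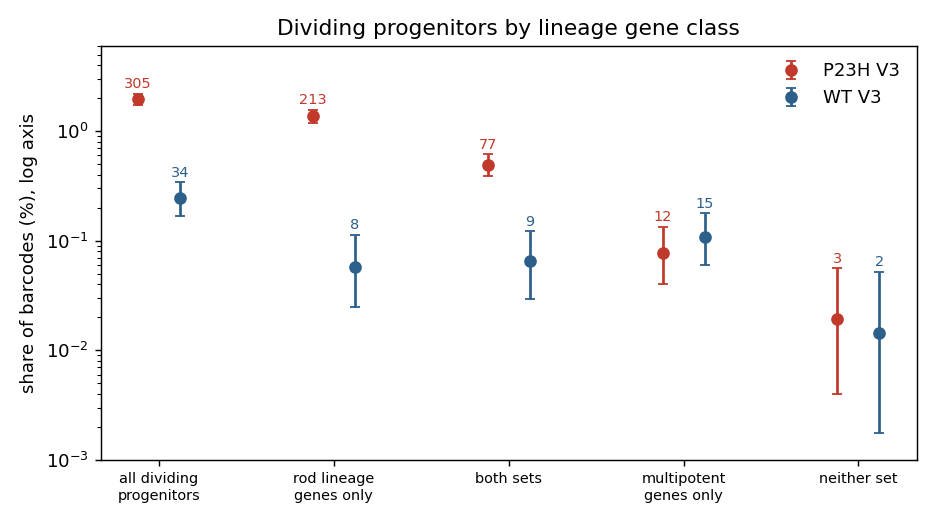
Share of all barcodes with 200 or more genes (percent, log axis) taken by dividing progenitors and by each lineage class in P23H V3 and WT V3, with exact 95% binomial intervals and the number of members above each point. The P23H share was 1.37% against 0.0575% in WT for the rod lineage class, and 0.0772% against 0.108% for the multipotent class.

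The classes are ranges of a count and not cell types. In P23H members *neurod1* gave 6477 UMIs of the rod lineage set and *nr2e3* 40, so that the name of the set does not show a rod fate. The rod lineage set had a median of 28 UMIs per member in P23H and 1.5 in WT, and 6, 9 and 4 P23H members held 0, 1 and 2 UMIs of it, against 8, 9 and 1 in WT. The multipotent set had a median of 1 UMI in P23H and 6.5 in WT, with 142, 74 and 25 P23H members at 0, 1 and 2 UMIs and 9, 1 and 4 WT members. P23H members with both sets were the deeper ones, with a median of 12690 UMIs against 6548 in the rod lineage class and 3558.5 in the multipotent class. With every member thinned to 2000 UMIs, 251 of 297 P23H members (84.5%) had the rod lineage set only, 14 the multipotent set only and 25 both. For WT these were 9 (29.0%), 19 (61.3%) and 1 of 31.

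The rod lineage set at 2000 UMIs was found in 2.90% (6 of 207, interval 1.07 to 6.20%) of P23H barcodes with leukocyte genes, which should lack it. In such WT barcodes it was found in 2.67% (2 of 75, 0.325 to 9.30%). The median depth of all barcodes with leukocyte genes, with those under 2000 UMIs included, was 3696 UMIs in P23H and 4632.5 in WT. In members thinned in the same way it was found in 92.9% and 32.3%. The multipotent set was found in 5.31% and 1.33% of leukocyte barcodes and in 13.1% and 64.5% of members. In all other barcodes, a mix of retinal cells that includes cells expressing these genes, the rod lineage set was found in 27.3% in P23H and 24.4% in WT, and the multipotent set in 21.4% and 21.1%. The share with the multipotent set in P23H members thus lay below that in the other barcodes, and the share with the rod lineage set in WT members (16.7 to 51.4%) had an interval that included that in the other barcodes. In the V2 library 76 of 92 members (82.6%) had the rod lineage set only, 1 the multipotent set only and 6 both. By stage, 104 P23H members of the rod lineage class leaned to S and 108 to G2/M, 6 and 6 of the multipotent class, and 39 and 37 of the class with both. For WT these were 3 and 5, 7 and 8, and 2 and 7. With members thinned to 2000 UMIs, the classes of P23H gave 117 and 127, 8 and 6, and 16 and 8. Those of WT gave 2 and 7, 9 and 9, and 0 and 1.

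**Figure D3:**
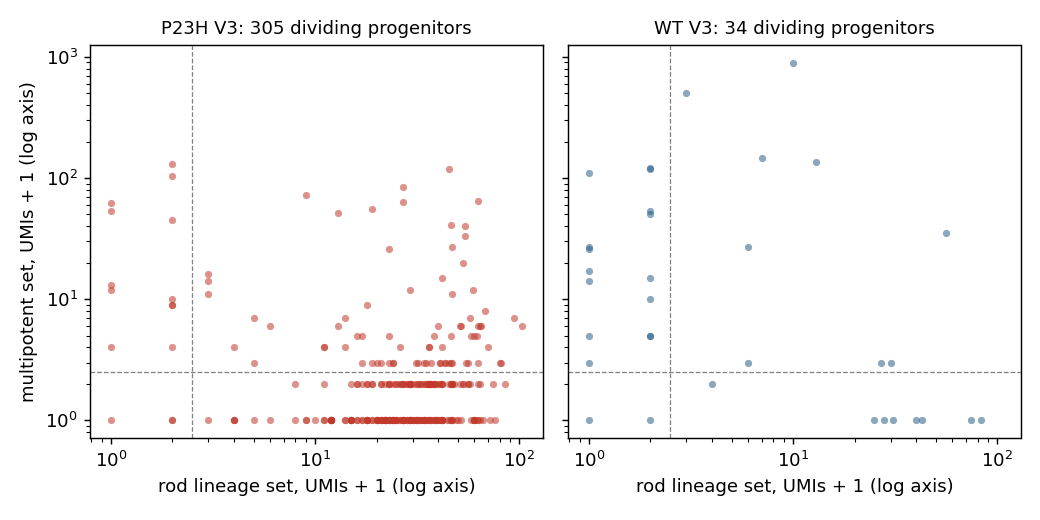
UMIs plus 1 of the rod lineage set (x) and the multipotent set (y) in each member, log axes, with P23H V3 on the left and WT V3 on the right and the cut of 2 UMIs dashed. The P23H members gather at the lower right (median 28 UMIs of the rod lineage set and 1 of the multipotent set), whereas WT members lie along the left edge, along the bottom and, for a few, at over 100 UMIs of the multipotent set.

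Gene levels were then compared over the members of each library as CPM of summed UMIs (2438008 in P23H and 304964 in WT). A gene was called where the levels differed by 1.5 times or more and their Poisson intervals did not overlap. Of 4327 genes with a mean of 20 CPM or more, 345 (7.97%) were higher and 497 (11.5%) lower in P23H, 19.5% in all, and the median log2 ratio was -0.02. Scaling by TMM in place of total UMIs raised log2 ratios by 0.24 and turned the split, so that 64.8% of calls were higher in P23H against 41.0% here. Of the 345 higher genes, 160 were at least 1.5 times higher in the other P23H barcodes as well, and 219 of the 497 lower genes were also lower there. The share of all 4327 genes that differed in this way in the other barcodes is not given, so these counts have no background. For 117 of the lower genes a single WT cell gave most of the WT UMIs. Lists of genes are described below by their counts of calls and their medians, to be read against the background shares of 7.97% and 11.5%. Some lists share genes, such as *neurod1* in the photoreceptor lineage and Notch lists and *id2a* in the multipotent and TGF-beta lists. Their counts are thus not separate results.

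Most called factors of the photoreceptor lineage were higher in P23H members. Of 11 genes of this list measured at 20 CPM or more, 6 were called higher and 2 lower, with a median log2 ratio of 0.70. The lower ones were *rx1*, given below, and *tbx2b*, with 29 UMIs in P23H members and 29 in WT members. Of the latter, 16 lay in the deepest WT barcode. The summed log2 ratio of the list was 0.35. It was 0.91 in G2/M-leaning members and turned to -0.13 in S-leaning members. Most of the sum is *fabp7a* and *neurod1*. The deepest WT barcode was S-leaning and held 368 of the 1135 WT UMIs of *fabp7a*, and the stages were not compared without it. *neurod1*, a basic helix-loop-helix factor of photoreceptor genesis, was at 2657 CPM (2592 to 2722) in P23H members, 1010 CPM (900.3 to 1129) in WT members and 2763 CPM in the members of the V2 library, a log2 ratio of 1.40 (1.23 to 1.56). It had a median of 19 UMIs per member (0 to 83) in P23H and 1 (0 to 54) in WT, and was detected in 95.7% and 58.8% of members, against 24.2% and 23.9% of other barcodes. Nearly every P23H member thus carried it, whereas WT members ranged from none to high levels.

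*crx*, the cone-rod homeobox factor, was at 276 and 118 CPM (log2 ratio 1.23, 0.74 to 1.75) and was detected in 79.0% and 38.2% of members. *prdm1a*, a repressor that favours the photoreceptor fate, was at 54.5 and 19.7 CPM (log2 1.47), *cxxc5a*, which encodes a CXXC zinc finger protein, at 583 and 302 CPM (0.95), *otx5*, a relative of *crx*, at 186 and 115 CPM (0.70, and 0.42 without the deepest WT barcode), and *arl13a*, a small GTPase gene related to a ciliary GTPase, at 292 and 154 CPM (0.92). These genes were higher in P23H in each case. *nr2e3*, an orphan nuclear receptor of rod identity, had 40 UMIs in P23H and 1 in WT, and *nrl*, a leucine zipper factor of rods, 49 and 3. Their WT counts were too low for a call.

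Genes of the mature rod were lower in P23H members. Of 13 rod phototransduction genes entered, 1 was called higher and 6 lower. *rho* was at 368 CPM in P23H members and 2013 CPM in WT members, and *gnat1*, rod transducin, at 51.3 and 387 CPM. In the other barcodes *rho* was at 5306 and 17627 CPM, so that it was lower in P23H there too. It was detected in 76.4% of members and 78.7% of other barcodes in P23H, and in 100% and 99.9% in WT. Whether members expressed it or held it as background RNA of the library was not tested.

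Several neurogenic factors that act in differentiating neurons were higher as well. *insm1a*, a zinc finger repressor of neurogenesis, was at 1270 and 587 CPM (log2 ratio 1.11), *sox4a* at 646 and 331 CPM (0.96) and *sox11b* at 521 and 315 CPM (0.73, and 0.46 without the deepest WT barcode), the latter 2 encoding SoxC factors of new neurons. *insm1b*, the paralog of *insm1a*, had 800 UMIs in 220 P23H members and 0 UMIs in WT members. Its P23H level was 33.4 times a floor of 3 counts over all WT members, and the lower limit of its log2 ratio was 4.76. It was at 328 CPM in P23H members and at 242 CPM in the V2 members. Other barcodes held it at 18.0 CPM in P23H and 6.08 CPM in WT, so that the WT library did detect it outside the members. *hes6*, a Hes-type factor that promotes neurogenesis, was at 682 and 607 CPM, with overlapping intervals, and was detected in 90.2% and 88.2% of members. *olig2*, a basic helix-loop-helix factor of neural progenitors, was at 194 and 249 CPM and in 50.8% and 58.8% of members.

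Factors of multipotent progenitors were lower in P23H members. Of 16 genes entered, 12 were called lower and 1 higher, with a median log2 ratio of -1.82 and a summed log2 ratio of -1.72 (-1.19 without the deepest WT barcode). The summed ratio was -0.65 in G2/M-leaning and -2.42 in S-leaning members. The deepest WT barcode was S-leaning and held 896 UMIs of the multipotent set, and the stages were not compared without it. *foxn4*, a forkhead factor that sets the competence of progenitors for amacrine and horizontal fates, was at 33.6 CPM (P23H), 433 CPM (WT) and 105 CPM (P23H V2), a log2 ratio of -3.69 (-4.10 to -3.28), and was detected in 16.7% and 61.8% of members. *sox2*, which encodes a factor of neural progenitors, was at 53.3 and 200 CPM (log2 -1.91), and *pax6a* had a log2 ratio of -1.83 (-1.11 without the deepest WT barcode). The homeobox genes *rx1* (-1.21) and *six3b* (-1.05) were also lower.

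Notch effectors were lower too. Of 32 genes of the Notch and neurogenic list entered, 19 were called lower and 6 higher, with a median log2 ratio of -1.43. *her4.3*, a Hes-type target of Notch, was at 167 CPM in P23H members against 2617 CPM in WT members (log2 -3.97, -4.15 to -3.80), and *her4.2* at 154 and 1390 CPM (-3.17). *her15.1* was at 123 and 2499 CPM (-4.35), with 299 UMIs in 33 P23H members and 762 in 14 WT members, 428 of them in the deepest WT barcode. Without that barcode its log2 ratio was -3.44. The *her4* and *her15* genes lie in families of near-identical copies, so that the split of UMIs among copies is uncertain. As a group the *her4* and *her15* genes reached 10 UMIs in 21 P23H members (6.89%) and 11 WT members (32.4%), and none was detected in 260 and 17 members. The receptor gene *notch1b* was at 25.8 and 95.1 CPM (-1.88), the ligand gene *dla* at 140 and 436 CPM (-1.64), and *ascl1a*, a proneural factor of Müller glia-derived progenitors, at 11.9 and 171 CPM (-3.84). *id1*, an inhibitor of basic helix-loop-helix factors, was at 101 and 1541 CPM (-3.93), 276 of its 470 WT UMIs lying in the deepest barcode (-2.93 without it).

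**Figure D4:**
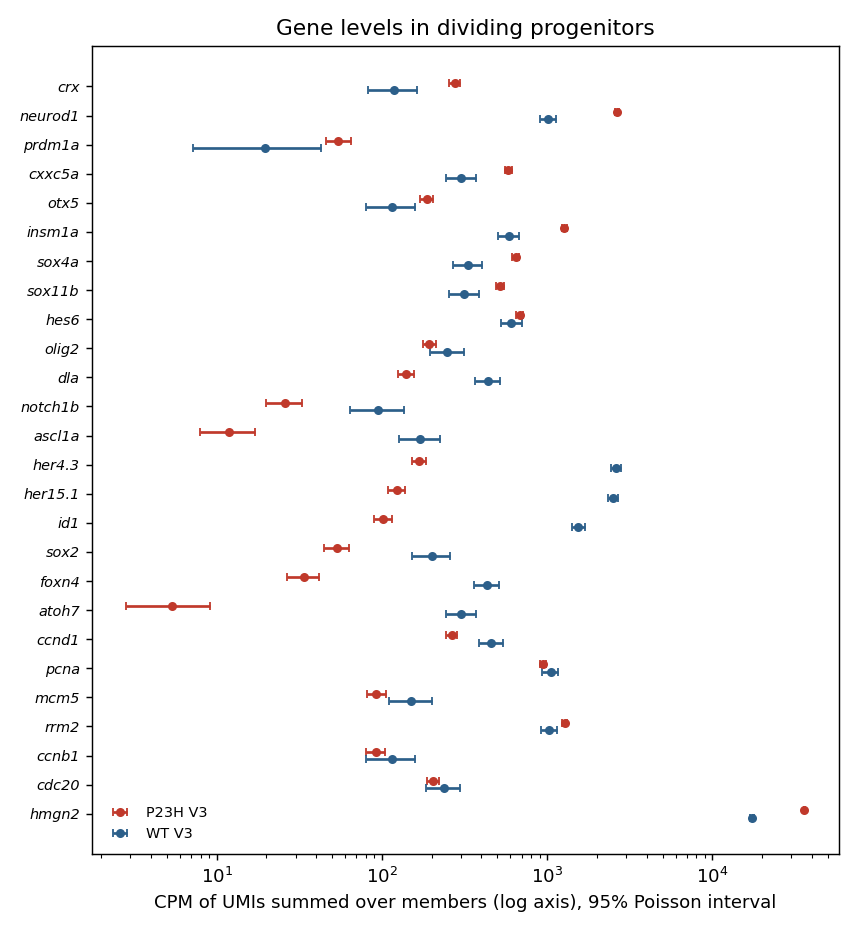
Level (CPM of UMIs summed over members, log axis) of lineage, Notch and cell cycle genes in P23H V3 and WT V3 members, with exact 95% Poisson intervals. *crx* to *sox11b* lie higher in P23H (*neurod1* 2657 against 1010 CPM), *dla* to *ccnd1* lie higher in WT (*her4.3* 2617 against 167 CPM), and *hes6*, *olig2*, *pcna*, *ccnb1* and *cdc20* have overlapping intervals.

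The genes named by the study for its progenitor cluster were chosen on these same samples and are no independent evidence. Of its cell cycle genes, *ccna2*, *aurkb*, *top2a* and *ube2c* belong to the rule, which partly fixes their levels in members. The study reported *aurkb*, *top2a* and *ube2c* as enriched in P23H, and members chosen on these genes cannot decide this. Outside the rule, *ccnb2*, a mitotic cyclin, was at 27.1 and 32.8 CPM and *ccne2*, a cyclin of S phase entry, at 45.5 and 59.0 CPM. Neither was called, with 10 and 18 UMIs in WT members. Besides *foxn4*, *notch1b* and *her15.1*, given above, the study named *crabp2a*, a retinoic acid binding protein gene, which reached 3.28 CPM in P23H members against 184 CPM in WT members, with 8 UMIs in 3 members against 56 UMIs in 10 members. *neurod1*, *cxxc5a* and *arl13a* are likewise among genes that the study used for newly formed rods in these libraries.

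Among the 10 genes with the lowest ratios in P23H, the number of WT members with a UMI ran from 1 to 14. *fabp11a*, a fatty acid binding protein gene, had 6 UMIs in 4 P23H members and 107 in 7 WT members (log2 ratio -7.16), 56 of them in the deepest WT barcode (-6.37 without it). *atoh7*, the basic helix-loop-helix factor required for ganglion cells, had 13 UMIs in P23H and 92 in WT (-5.82), the latter in 4 members, of which 2 held 56 and 28. *her12*, another Hes-type gene, had 15 and 158 UMIs (-6.40), 94 of them in the deepest WT barcode (-5.37 without it). *col15a1b*, a collagen gene (3 and 50 UMIs, -7.06), and *sox18*, a vascular factor (4 and 35 UMIs, -6.13), had 41 and 24 of their WT UMIs in that barcode (-4.87 and -4.74 without it). All 36 WT UMIs of *ecrg4a* (-5.85) lay in 1 other member, as did 51 WT UMIs of *tuba8l3*, a tubulin gene (-5.67). *tjp2b*, a tight junction gene, was at -5.62 (-5.06 without the deepest WT barcode) and was detected in 6 P23H and 9 WT members. The values of *ecrg4a* and *tuba8l3* thus describe a single WT cell, whereas *tjp2b* and *crabp2a* were spread over 9 and 10 of the 34 WT members.

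The 10 genes with the highest ratios included *insm1b*, given above. *bbip1*, a subunit of the BBSome of cilia, had 291 UMIs in 182 P23H members and 0 in WT, or 12.1 times the floor of 3 counts. *psmb12*, a proteasome beta subunit, had 245 UMIs in 122 members and 0 in WT, or 10.2 times that floor. The lower limits of their log2 ratios were 3.29 and 3.04. Both also differed in the other barcodes, with *bbip1* at 174 and 1.17 CPM and *psmb12* at 24.5 and 5.77 CPM in P23H and WT. The chemokine gene *ccl33.3* had 527 UMIs in P23H and 0 in WT, but 525 of them lay in 1 member. The others were *ba1l*, a globin gene (log2 ratio 2.87), *oaz2b*, an antizyme gene (2.74), *olfm1b*, an olfactomedin gene (2.48), *dock3*, an exchange factor gene (2.35), *gab2*, an adaptor gene (257 and 7 UMIs), and *znf346*, a zinc finger gene (2.19). In the other barcodes the log2 ratios of these genes were 2.78 for *ba1l*, 1.26 for *oaz2b*, 0.21 for *olfm1b*, 2.94 for *dock3*, 1.25 for *gab2* and 2.27 for *znf346*.

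Most genes of the cell division machinery were not called. Members of both libraries were chosen by cell division genes, which partly fixes the levels of the replication and mitosis lists. The values of these lists are thus a description and cannot decide whether progenitors of the libraries differ in cell division. Of 44 replication genes entered, 2 were called higher and 6 lower, with a median log2 ratio of -0.22, and their summed levels were 6114 and 6525 CPM (log2 ratio -0.09, -0.16 to -0.03), which turned to 0.14 under TMM. *mcm2* (91.1 and 174 CPM, -0.93), of the replicative helicase, *rrm1* (161 and 285 CPM, -0.83), the large subunit of ribonucleotide reductase, and *tyms* (46.8 and 105 CPM, -1.17), thymidylate synthase, were lower in P23H. *mcm5*, of the same helicase, was at 92.7 and 151 CPM (-0.70), and at -0.22 without the deepest WT barcode. *dut*, which clears dUTP, was higher, with 102 UMIs against 3 (2.09), as was *rfc4*, of the clamp loader, at 159 and 98.4 CPM (0.69).

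Of 54 mitosis genes entered, 2 were called higher and 7 lower, with a median log2 ratio of -0.24. Their summed levels were 6185 and 7414 CPM (log2 ratio -0.26, -0.33 to -0.20), or -0.51 without the deepest WT barcode and 0.39 with the V2 library in place of V3. *hmmr* (-1.28), *tacc3* (-1.02) and *nusap1* (-0.79), which act at the spindle, the checkpoint kinase gene *ttk* (57.4 and 115 CPM), and *birc5a* and *cdca8* (both -0.61) of the chromosomal passenger complex were lower in P23H. *cenpk* (207 and 7 UMIs, 1.89) and *spc24* (185 and 88.5 CPM, 1.06), of the kinetochore, were higher. In the other barcodes *spc24* had a log2 ratio of 2.79, but at levels of only 2.76 and 0.399 CPM. *ccnb1* at 91.9 and 115 CPM and *cdc20* at 204 and 236 CPM were not called. Both counts of lower genes were near the background share of 11.5%.

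Genes that hold cells in or carry them through G1 were called lower or not called. Of 20 entered, 6 were lower and none was higher, with a median log2 ratio of -0.38. *btg2*, an antiproliferative gene, was at 103 and 528 CPM (-2.36, and -1.58 without the deepest WT barcode, which held 84 of its 161 WT UMIs), *cdkn1a*, a CDK inhibitor, at 31.2 and 121 CPM (-1.96) and *ccnd2a*, a D cyclin, at 7.38 and 55.7 CPM (-2.92). *ccnd1*, the D cyclin with the higher level, was at 264 and 459 CPM (-0.80), but 85 of its 140 WT UMIs lay in the deepest barcode, and without it the log2 ratio was 0.27.

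Chromatin genes took the largest share of UMIs among the lists. *hmgn2*, a nucleosome-binding protein, was at 35937 CPM in P23H, 17379 CPM in WT and 35421 CPM in V2 members (log2 ratio 1.05, 1.01 to 1.09), with a median of 298 UMIs per member (8 to 596) in P23H and 148.5 (8 to 476) in WT. *hmgb2a*, a DNA-bending protein of dividing cells, was at 10855 and 6650 CPM (0.71, and 0.51 without the deepest WT barcode). Of 36 genes entered, 5 were higher and 4 lower, the higher ones also including *hmgb3a* (0.88), *anp32e* (0.87) and *cbx3a* (0.86) and the lower ones *hmgb1a* (-1.63), *lmnb2* (-1.59) and *cdca7a* (-1.55). *hmgn2* was higher in the other P23H barcodes too, at 1603 against 412 CPM.

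Of the other lists, the proteasome had 11 of 33 genes higher and 1 lower in P23H (median log2 0.48), with *psmd4a* at 130 and 65.6 CPM, *psma8* at 383 and 207 CPM, *psmb4* at 0.61 (0.52 without the deepest WT barcode) and *psmc6* at -1.75. Genes associated with retinal regeneration were lower in 12 of 19 and higher in 3 (median -1.05). Among them *mdka*, a growth factor of progenitors and reactive glia, was at 97.6 and 489 CPM (-2.32), *myca* was higher at 834 and 475 CPM (0.81), and *socs3a*, a target of STAT3, was at -2.58 and at -0.36 without the deepest WT barcode. Heat shock and unfolded protein genes were lower in 8 of 27 and higher in 1, with a median of -0.02. *hspa8*, a cytosolic chaperone, was at 321 and 1135 CPM (-1.82), *hspb1* was at -2.75 (-1.50 without the deepest WT barcode) and *hsp70.3* at 0.86. The TGF-beta and FoxO list had 5 of 16 lower and 1 higher (median -0.47).

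The immediate early genes had 6 of 14 lower and 1 higher in P23H (median -0.64). *klf6a* (-3.05) and *ier2a* (-2.75) were lower and *junbb* was higher (0.61). Without the deepest WT barcode *ier2a* was at -1.84, *junbb* at 1.84 and *fosab*, at -2.30 with it, at -0.80, and the summed list went from -0.50 to 0.05. Cone phototransduction genes were lower in 10 of 15 and higher in 2. Müller glia markers, at 461 and 630 CPM in all, were higher in 3 and lower in 3 of 7. Markers of the retinal pigmented epithelium had 4 of 5 genes lower and none higher in P23H members (median log2 -2.75), with summed levels of 148 and 636 CPM (-2.10), and *rgrb*, an opsin gene of that tissue, was at 65.6 and 272 CPM. In the other barcodes their summed log2 ratio was -4.66. The summed log2 ratio was -2.26 for T lymphocyte markers (24.6 and 118 CPM) and -1.91 for vascular markers (27.1 and 102 CPM), and the part of RNA from such cells in the results was not tested.

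Levels were also compared within each class of members. The classes were cut on the rod lineage and multipotent sets, so that the levels of the genes of these sets within a class are partly fixed by the cut and are a description. Lists were summed without these genes. In the rod lineage class (213 and 8 members), the photoreceptor lineage list, most of which is then *fabp7a*, had a log2 ratio of 1.96 (1.65 to 2.28), the Notch list 0.05 (-0.10 to 0.20) and the multipotent list 0.34 (-0.08 to 0.80). The replication list was at -0.22 and the mitosis list at -0.17, but with the WT member that held most UMIs of the list left out these became 0.17 and 0.16. *sox4a* was at 796 and 833 CPM and *insm1a* at 1480 and 1216 CPM, with intervals of the ratio that included equality. *hes6* was at 793 and 533 CPM (0.57, 0.11 to 1.07) and *sox11b* at 687 and 929 CPM (-0.43, -0.79 to -0.06). With the WT member richest in each gene left out, the log2 ratios were 0.65 for *sox4a*, 0.50 for *insm1a*, 0.69 for *hes6* and 0.02 for *sox11b*, so that 8 WT members fix these values only loosely. Of the genes that cut this class, *neurod1* was at 2931 and 2883 CPM, *cxxc5a* at 695 and 779, *crx* at 342 and 232 and *otx5* at 230 and 383 CPM.

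In the multipotent class (12 and 15 members), the multipotent list had a log2 ratio of 0.84 (0.59 to 1.08), the Notch list -0.45 (-0.67 to -0.24) and the immediate early list 1.19. Single members carried much of this. Without the P23H member richest in the list, the multipotent list was at 0.31 and the immediate early list at 0.44, and without the WT member richest in it the Notch list was at -0.15. *crabp2a* was at 152 and 162 CPM and *dla* at 549 and 547 CPM. *id1* was at 3865 and 1690 CPM (1.19), with 106 of its 204 P23H UMIs in 1 member (0.43 without it). *atoh7* was at 189 and 1131 CPM (-2.58), with UMIs in 3 members of each library, and at -1.30 without the WT member that held 56 of them. Of the genes that cut this class, *foxn4* was at 398 and 770 CPM, *her15.1* at 2709 and 2386 CPM and *her4.3* at 2444 and 1914 CPM. The log2 ratio of *her15.1* ran from -0.61 to 0.67 with the richest member of either library left out.

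In the class with both sets (77 and 9 members), which holds the deepest WT barcode, multipotent genes were far lower in P23H. *her15.1* was at 174 and 4062 CPM (-4.54, and -3.24 without that barcode), *her4.3* at 311 and 4590 CPM (-3.89 and -3.84) and *foxn4* at 49.1 and 492 CPM (-3.32 and -3.09). *crabp2a* had 0 UMIs in P23H and 38 in WT, the latter in 3 members. The multipotent list was at -2.23 (-1.19 without that barcode), the photoreceptor lineage list at -1.06 (-0.58) and the Notch list at -0.22 (-0.19). *neurod1* was higher in P23H, at 2387 and 663 CPM (1.85, and 1.14 without that barcode). The *her* genes, *foxn4* and *neurod1* are among the genes that cut this class, so that their levels here are partly fixed by the cut. With members thinned to 2000 UMIs, 25 of 297 P23H members and 1 of 31 WT members had both sets, so that the class depends on depth. It may hold different cells in P23H and WT, and these levels are a description.

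The level of *hmgn2* was higher in P23H in each of these 3 classes. It was at 40668 and 23816 CPM in the rod lineage class, 32928 and 19870 in the multipotent class and 28349 and 13627 CPM in the class with both. *insm1b* had 580, 5 and 215 UMIs in the P23H members of these classes and 0 in each WT class. In the multipotent class 4 of its 5 UMIs lay in 1 of 2 members, too few to show a difference there. *fabp7a*, a brain-type fatty acid binding protein gene of progenitors and glia, went in different directions. It was at 3201 and 3722 CPM over all members and at 3845 and 369 CPM in the rod lineage class (5689 and 27 UMIs, log2 3.38, 2.84 to 3.98). In the multipotent class it was at 5115 and 5095 CPM (0.01, -0.22 to 0.23), and in the class with both at 2040 and 4433 CPM (-1.12, and -0.53 without the deepest WT barcode). In the WT rod lineage class it thus stood far below its level in the other classes of either library, in 8 cells, of which 7 had a UMI of it.

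**Figure D5:**
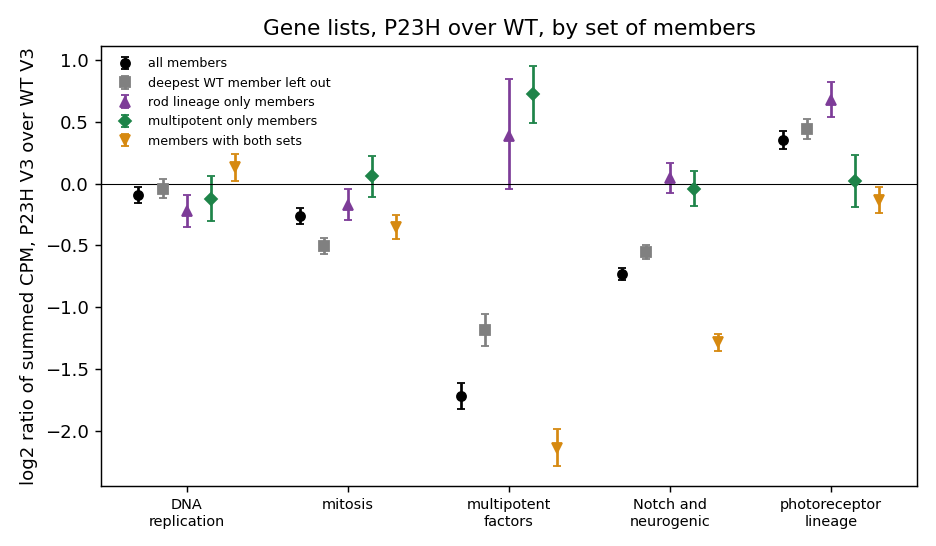
Log2 ratio of summed CPM, P23H V3 over WT V3, for 5 gene lists over all members, without the deepest WT member, and within each of 3 classes, with exact 95% intervals that cover counting error only. The lists here include the genes that cut the classes, so that the multipotent list at 0.38 and 0.72 in the rod lineage and multipotent classes is partly fixed by the cut. In the class with both sets it was at -2.14, against -1.72 over all members.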

How the data were processed

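Whole retinas of 3 fish per library were dissociated and profiled with 10X 3' chemistry. Reads were mapped by the authors to the GRCz11 build with Cell Ranger, as the submitters' processing notes name it, and the deposited values are raw UMI counts, 1 whole number per gene and barcode, not normalized. These counts were read as deposited. The 47048 rows were reduced to 30579 symbols by summing numbered copies of a symbol. Barcodes with 200 or more genes were kept, and members were taken by the rule given in the report. The members and the gene lists were chosen with earlier results of these data known.

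UMIs were summed over members per library and scaled to counts per 1000000 (CPM), with exact Poisson intervals for levels, exact conditional binomial intervals for ratios and Clopper-Pearson intervals for shares, all at 95%. PCR copies are merged by UMI, but members of a library are not replicates, so that intervals cover counting error only. Genes entered the comparison at a mean of 20 CPM or more and were called at a ratio of 1.5 with intervals apart. A count of 0 was set against a floor of 3 counts over the group. Ratios over other barcodes used a pseudocount of 1 CPM. The genes named are those of the rule and label, the 20 highest and 5 lowest in members over other barcodes, the 10 highest and 10 lowest in P23H over WT (50 CPM or more, clone names left out), extremes of each list and the genes named by the study. Further members of the lists were chosen after their values were seen. Doublets were not called, and an alternative left out the 5% of members with the most UMIs. The alternatives are named in the closing section. The calculation was tested on simulated data. Intervals were computed with scipy 1.17.1 and tables with pandas 2.3.3 and numpy 2.4.6 in python 3.11.15, figures with matplotlib 3.10.9, and TMM factors alone with edgeR 4.0.16 in R 4.3.3. A gene of the multipotent set, counted in the sums, is not reported here. The histology of the study was not analysed here.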

Additional observations from a re-analysis of the deposited data

Results flagged for a closer look

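Data outside the comparison of the V3 libraries also held such cells. In the P23H library made with V2 chemistry, 1.97% of barcodes (92 of 4671) met the same rule, above the 0.244% of the WT V3 library, and 82.6% of those 92 members had rod lineage genes only, above the 23.5% of WT V3 members. The members of that library were shallow, with a median of 1165.5 UMIs, and no WT library of the same chemistry was analysed here, so that the chemistry and the genotype cannot be told apart in this comparison.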

How the results depend on the processing

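No paired analysis was possible because each group is 1 library and the labels give no shared replicate numbers. For the same reason no library could be left out in turn. The share ratio of 8.03 ranged from 4.52 (barcodes thinned to 1000 UMIs) to 10.0 over 14 alternatives. Leaving out the deepest WT barcode, leaving out members with markers of another cell type, and taking each class alone, and within classes leaving out the member richest in a gene or list, were chosen after seeing the data. Counts of genes were the least stable. Genes called higher in P23H, 345, were 633 under TMM, 556 with the V2 library in place of V3, 24 with thinned barcodes, 171 in G2/M-leaning members, 217 at a ratio of 2, 114 in the rod lineage class, 90 in the multipotent class and 138 in the class with both sets without the deepest WT barcode. Genes called lower, 497, were 783 with no filter on level, 782 with every cell given the same weight, 323 in G2/M-leaning members, 291 at 50 CPM or more, 273 with the V2 library, 156 in the rod lineage class, 315 in the class with both sets without the deepest WT barcode, 75 with thinned barcodes and 53 in the multipotent class. Without the deepest WT barcode the counts were 241 and 491. Fewer UMIs or members entered with thinning, stages and classes, and otherwise the cause was not tested. Higher genes were 67.1% of calls with the V2 library, 24.2% with thinned barcodes and 62.9% in the multipotent class, against 41.0%. The P23H share of the rod lineage class, 69.8%, was 46.2% at 1 UMI and 77.7% at 3 UMIs of a set, 84.5% with members thinned to 2000 UMIs and 82.6% in V2. That of the multipotent class, 3.93%, was 1.64% at 1 UMI and 1.09% in V2, and the WT share, 44.1%, was 20.6% at 1 UMI. S-leaning members were 38.0% in P23H and 23.8% in WT when 10 UMIs of the proliferation genes were required, and in P23H 34.9% with thinned barcodes and 18.9% in V2. Some summed list ratios turned direction. The replication list turned from -0.09 to 0.013 without the condition on *stmn1a* to 0.14 under TMM, and to 0.13 in the class with both sets (0.55 without the deepest WT barcode). The mitosis list turned from -0.26 to 0.39 with V2, 0.14 in S-leaning members and 0.058 in the multipotent class. The multipotent list turned to 0.72 in the multipotent class and 0.38 in the rod lineage class, the Notch list to 0.045 in the rod lineage class, and the photoreceptor lineage list, which is mostly *fabp7a* and *neurod1*, to -0.13 in S-leaning members and to -0.14 in the class with both sets. Over the other alternatives run for the full lists, each kept its direction. Within the rod lineage class, leaving out the WT member richest in the list also turned the replication and mitosis lists, as given above. Depth limits the WT side most, where 34 members hold 304964 UMIs and 3 counts are 9.84 CPM.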
